A study of Mus musculus with 12 samples.

Results

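Haem synthesis and iron supply were followed through 9 genes, of 18193 genes named on the array. They are 7 enzymes of haem synthesis (Alas1, Alad, Uros, Urod, Cpox, Ppox and Fech), Hmox1, which breaks haem down, and Tfrc, the transferrin receptor. A further enzyme, of the step between Alad and Uros, was not analysed here. All probe sets annotated to these symbols were taken, which gave 22 ordinary probe sets and 3 array controls of Tfrc. Of the 22, 18 passed a filter on dim signals, with at least 1 for each gene, and the 4 that did not belong to Cpox, Ppox and Fech. The set was chosen by the measured Cpox signals, which differed when SEMA6A was added to SEMA3A, and the question was whether other steps of the pathway followed. The Cpox values in that comparison, and in every comparison that uses those arrays, are therefore given as a description with no test.

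The RNA came from splenocytes of DBA/2 mice aged 10 weeks, kept for 9 days with KLN-205, a squamous carcinoma line of the mouse. All groups shared the knockdown of SEMA3A in the tumour cells and 100 units/mL of interleukin-2, given every 3 days. In the SEMA6A+SEMA3A group the tumour cells overexpressed SEMA6A, and the medium received purified SEMA3A at 10 µg/mL. The SEMA6A group had the overexpression alone, the SEMA3A group the protein alone at 10 µg/mL, and the control group neither. The 12 arrays were 3 for each of these 4 groups. SEMA6A was thus changed in the tumour cells and not in the splenocytes. Whether replicate arrays stand for separate cultures or mice is not stated in the labels. The p-values measure only the spread between these samples, which may be technical. Precision is limited by the small number of arrays.

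Haem is an iron-bearing ring made by nearly every cell for its cytochromes and other proteins. Alas1 starts the chain in the mitochondrion, Alad, Uros and Urod work in the cytosol, and Cpox, Ppox and Fech complete the ring in the mitochondrion, where Fech inserts the iron. Iron enters dividing cells mainly through the transferrin receptor, which activated lymphocytes carry in large amounts. Hmox1 opens the ring again and frees the iron, and is induced by haem and by oxidative stress.

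The cultures had the RNA of cytotoxic T cells. Gzmb, a granzyme of cytotoxic granules, lay between 38065 and 50605 on all arrays, and Cd3e, of the T cell receptor complex, between 4039 and 6446. Of the coreceptors, Cd8a lay between 1613 and 3979.8 at 1 of its 5 probe sets, and Cd4 did not pass the filter. Red cell precursors, which make haem in bulk, left little RNA. Of 9 erythroid markers named on the array, 2 passed the filter (Epor and Tfr2), and Alas2, the erythroid form of the first enzyme, and the globin gene Hba-a1 had median signals of 4.80 and 5.19. The summed erythroid signal lay between 219 and 298 with both factors, between 169 and 310.0 in the SEMA6A group, between 232 and 312 in the SEMA3A group and between 179 and 293 in the control group. Of 11 squamous carcinoma markers on the array 8 passed, and Krt14, Krt17 and Trp63 did not. Their sums ran from 2538 to 2840 with both factors and from 2405 to 3651 with SEMA6A. They ran from 2299 to 2875 with SEMA3A and from 2437 to 2887 in the control group. Most of each sum came from Epcam and Cdh1, while Krt5 lay between 34.2 and 78.0. The sums are therefore no clear measure of squamous carcinoma RNA. The part of red cell precursors and carcinoma cells in the results was not tested. In RNA of a whole culture, fewer cells of a type and less RNA per cell cannot be told apart. Across arrays the median signal ran from 42.5 to 53.5. SEMA6A replicate 2 stood apart, with a 3' to 5' signal ratio of 1.22 for the Gapdh controls, against 0.767 to 0.818 on the other 11 arrays.

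Promoter windows from RefSeq (build GRCm38.p6), 250 bases before to 50 after a gene start, were found for 7 of the 9 genes, in 11 windows. Fech and Hmox1 had no window, so their promoters were not searched. The windows of Cpox and Tfrc are shown because Cpox is the enzyme in question and Tfrc the only member for iron uptake. They lie on the plus strand at chr16:58669958-58670257 for Cpox and chr16:32608646-32608945 for Tfrc, the outer of 2 Tfrc starts. Capitals mark matches, on either strand, to ACGTG, the core letters bound by hypoxia-inducible factors, and to GATAA, the core of sites of GATA factors.
Cpox: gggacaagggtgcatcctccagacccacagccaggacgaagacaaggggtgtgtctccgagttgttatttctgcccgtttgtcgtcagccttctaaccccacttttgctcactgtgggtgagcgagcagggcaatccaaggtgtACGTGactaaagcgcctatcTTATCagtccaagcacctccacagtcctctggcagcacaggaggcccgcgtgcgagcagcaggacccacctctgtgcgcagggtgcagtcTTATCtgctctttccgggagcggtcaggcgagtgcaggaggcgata
Tfrc: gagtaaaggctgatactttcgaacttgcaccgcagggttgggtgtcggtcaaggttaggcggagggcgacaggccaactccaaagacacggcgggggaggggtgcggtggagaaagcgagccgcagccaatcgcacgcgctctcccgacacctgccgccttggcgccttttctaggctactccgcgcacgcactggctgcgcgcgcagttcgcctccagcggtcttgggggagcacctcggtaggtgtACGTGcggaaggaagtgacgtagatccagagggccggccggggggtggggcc
The Cpox window held ACGTG 106 bases before the start and GATAA, as TTATC on the strand shown, 86 bases before it and at base 5 after it. In the Tfrc window ACGTG began 2 bases before the start and ran across it, and the same letters lie in the overlapping window of the inner start. Positions are those of the first letter of a match on the strand shown. ACGTG was present in 7 of the 11 windows, from 5 genes (Alad, Uros, Urod, Cpox and Tfrc), against 19.6% of all 32851 windows of this length. In Alad, Uros and Urod each match lay within CACGTG, which matches on both strands. The Tfrc match was counted in both of its windows. The letters alone do not name the factor that would read them. GATAA was present in 2 of the 11, from Cpox and Uros, against 25.4% of all windows. TGACNNNGC, the core of the antioxidant element read by NRF2 and BACH1, was in 0 of the 11, against 12.4% of all windows. None of these windows belongs to Hmox1. These matches describe letters only and show no binding.

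Cpox oxidises coproporphyrinogen in the space between the mitochondrial membranes. Its brightest probe set, 1422492_at, had signals of 860.4, 793 and 654 with both factors, against 190.2, 324 and 290.0 with SEMA3A alone. All arrays with both factors lay above all arrays with SEMA3A, by a log2 difference of 1.53 ± 0.26 (SE), the difference that put Cpox on the list. In the SEMA6A group the signals were 360.2, 599 and 329.9, and in the control group 408, 651.0 and 347. These 2 groups overlapped, and SEMA6A minus control, which shares no array with the comparison behind the choice, was -0.12 ± 0.26 (limma adjusted p = 0.88, 95% interval from -0.69 to 0.44), and between -0.38 and 0.13 when single arrays were left out. SEMA3A minus control was -0.76 ± 0.26, and both factors minus control 0.76 ± 0.26. Both factors minus SEMA6A was 0.89 ± 0.26. Leaving out single arrays moved the difference of 1.53 between 1.30 and 1.66. The differences are on the scale of log2(signal + 16), which understates those of dim probe sets.

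The other Cpox probe sets did not follow. The second one to pass the filter, 1422493_at, which is annotated to the same transcript record, had signals of 95.7, 90.4 and 112.7 with both factors, against 111.3, 117.5 and 89.8 with SEMA3A. These overlapped, with a log2 difference of -0.08 ± 0.18 (SE), where the brightest probe set was at 1.53. In the SEMA6A group it lay at 135.9, 163.7 and 130.7, above all arrays with both factors, and in the control group at 155.2, 161.9 and 100.2. Both factors minus SEMA6A was -0.47 ± 0.18 and both factors minus control -0.44 ± 0.18, where the brightest probe set was at 0.89 and 0.76. Its SEMA3A minus control was -0.36 ± 0.18, below 0 as for the brightest. SEMA6A minus control was 0.03 ± 0.18 (limma adjusted p = 0.96). The third, 1440747_at, stayed between 16.4 and 36.6 on all arrays and below the filter. A higher Cpox signal with both factors than with SEMA3A was thus read by 1 of the 2 probe sets above the filter, and which of them reports the Cpox message was not tested.

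**Figure D1:**
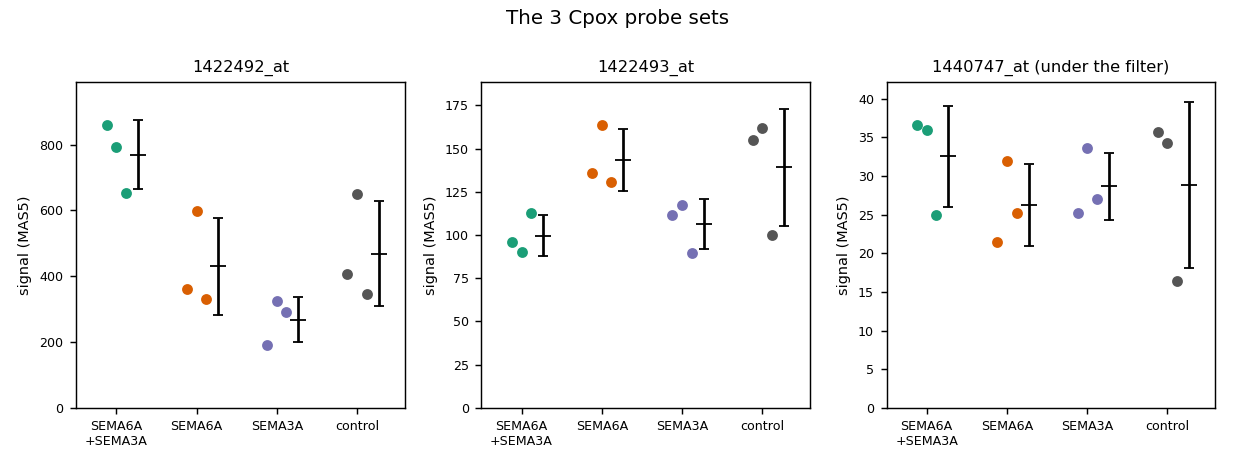
Signal of the 3 Cpox probe sets (vertical axes, MAS5 units, starting at 0) in the 4 groups; points are arrays, bars are mean ± SD (n = 3). The arrays with both factors lie highest at 1422492_at, from 654 to 860.4, and not at 1422493_at, from 90.4 to 112.7.

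Alas1, Alad and Uros, which act early in the chain, varied little at their brightest probe sets. Alas1, the rate-limiting enzyme of the chain outside red cell precursors, lay between 497 and 635 on all 12 arrays at its brightest probe set. Its mean was 556 ± 51.9 with both factors, 566 ± 23.2 with SEMA6A, 598 ± 46.0 with SEMA3A and 574 ± 29.2 in controls (SD, n = 3 each), and the groups overlapped. Both factors minus SEMA3A was -0.09 ± 0.11 (SE; limma adjusted p = 0.78) with a 95% interval from -0.34 to 0.15. Its dim second probe set, 1455282_x_at, whose suffix marks probes that may also bind other transcripts, had 102.0, 104.0 and 116.9 with both factors and 98.7, 101.7 and 119.8 with SEMA3A, against 80.6, 78.5 and 81.2 in the control group. Neither group overlapped with the control there, at 0.31 ± 0.18 for both factors (adjusted p = 0.91) and 0.29 ± 0.18 for SEMA3A (adjusted p = 0.67). The brightest Alas1 probe set gave -0.03 ± 0.11 and 0.07 ± 0.11 for the same comparisons.

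Alad, which joins aminolevulinic acid into a pyrrole, lay between 1666 and 2209, and both factors minus SEMA3A was 0.11 ± 0.10 (SE; limma adjusted p = 0.71). Uros, which closes the ring, lay between 498 and 610.1 and was at 0.07 ± 0.11 in that comparison (adjusted p = 0.84). The 95% intervals reached at most 0.33 for Alad and 0.31 for Uros. Each had a second probe set near the filter, from 45.3 to 142.2 for Alad and from 10.3 to 102.1 for Uros, whose differences in that comparison had standard errors of 0.30 and 0.40.

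Urod, which trims the side chains of the ring just before Cpox acts, gave different pictures at its 2 probe sets. At 1417206_at it had 604, 533 and 705 with both factors, against 776, 730.2 and 765 with SEMA3A. The groups did not overlap, and both factors minus SEMA3A was -0.29 ± 0.13 (SE; limma adjusted p = 0.43), opposite in sign to the brightest Cpox probe set. The same SEMA3A arrays lay above all control arrays, at 532, 667 and 655, with SEMA3A minus control at 0.30 ± 0.13 (adjusted p = 0.59), and at 0.19 without control replicate 1. In the SEMA6A group it was 625 ± 13.4 against 618 ± 75.2 in controls (SD, n = 3 each), and SEMA6A minus control was 0.03 ± 0.13 (SE; adjusted p = 0.93). The brighter probe set, 1443849_x_at, gave 2610.5, 2626 and 2976 with both factors against 3056, 3025 and 3033 with SEMA3A. There too the groups did not overlap, at -0.16 ± 0.11 (adjusted p = 0.60), but SEMA3A minus control was -0.004 ± 0.11. With SEMA6A alone it had 3069, 3966 and 3138, all above the arrays with both factors, and both factors minus SEMA6A was -0.31 ± 0.11 (adjusted p = 0.45), and -0.19 without SEMA6A replicate 2.

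Ppox and Fech, the last enzymes, showed no shift like that of Cpox. Ppox, which acts on the product of Cpox, lay between 445 and 678 with overlapping groups, and both factors minus SEMA3A was -0.03 ± 0.16 (SE; limma adjusted p = 0.96, 95% interval from -0.37 to 0.31). Its other 2 probe sets did not pass the filter and reached at most 56.6 and 36.7. Fech, which inserts the iron, had 3 probe sets above the filter. The brightest, 1418699_s_at, had 581, 640.2 and 583 with both factors, against 763, 744 and 654 with SEMA3A and 639.7, 783 and 656 with SEMA6A. The arrays with both factors lay below those with SEMA3A, narrowly at one edge (640.2 against 654), at -0.24 ± 0.11 (adjusted p = 0.45). After quantile normalization they also lay below those with SEMA6A, at -0.18 ± 0.11 (adjusted p = 0.54). The other probe sets, 1418698_a_at and 1449181_at, were at -0.05 ± 0.14 and -0.01 ± 0.12 for both factors minus SEMA3A (adjusted p = 0.92 and 0.98). The remaining one, 1427696_at, was at most 17.4.

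**Figure D2:**
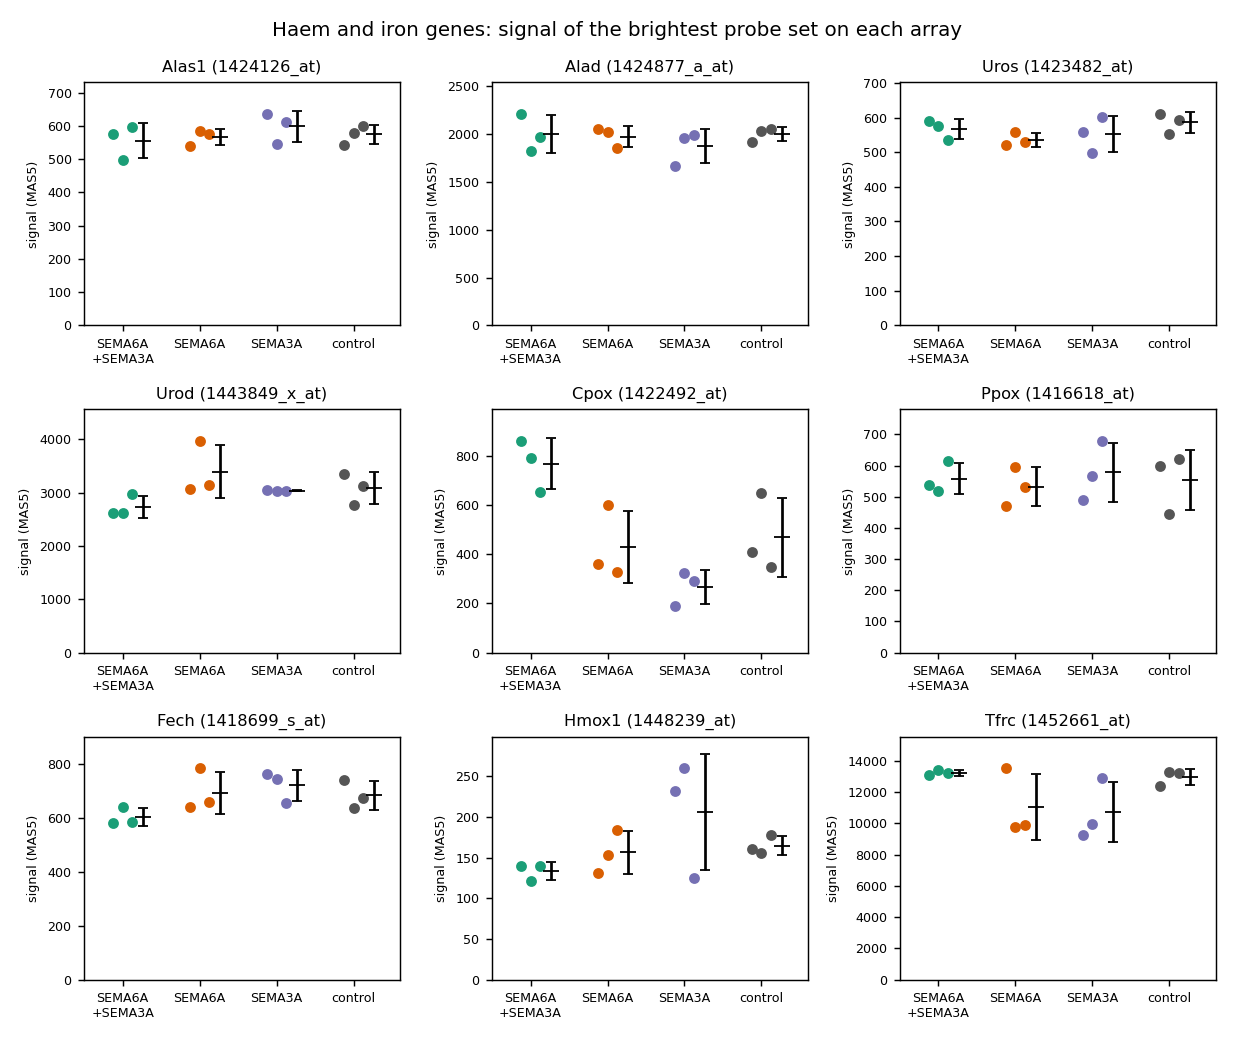
Signal of the brightest probe set of each of the 9 genes (vertical axes, MAS5 units, starting at 0) in the 4 groups; points are arrays, bars are mean ± SD (n = 3). Cpox spans 190.2 to 860.4, while Alas1 spans 497 to 635 and Uros 498 to 610.1.

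Counted over the 16 tested probe sets of the 8 genes without Cpox, few passed an unadjusted threshold and none an adjusted one. Benjamini-Hochberg adjusted p-values under 0.05 were reached by 0 of the 16 in each comparison, as by 0% of all 24366 probe sets. At an unadjusted p under 0.05, both factors minus SEMA3A had 3 of the 16 (Hmox1 and Urod 1417206_at below 0, Tfrc 1452661_at above), against 11.2% of all probe sets. For SEMA3A minus control there were 2 (Tfrc 1452661_at below and Urod 1417206_at above 0), against 8.14%. For SEMA6A minus control there was 1, against 9.4%, at another Tfrc probe set (1422966_a_at) and above 0. Both factors minus SEMA6A had 1 (Urod 1443849_x_at, below 0), against 10.7%. Both factors minus control had 0, against 5.99%, and the interaction had 1 (Tfrc 1452661_at, above 0), against 15.4%. The interaction is the difference with both factors minus those with each factor alone. On the quantile normalized values, groups without overlap were found for 4 of the 16 in both factors minus SEMA3A, against 20.4% of all probe sets. They were found for 2, 2, 3 and 2 of the 16 in SEMA6A, SEMA3A and both factors minus control and in both factors minus SEMA6A, against 12.1%, 16.8%, 16.8% and 13.9%. On the deposited signals some of these overlap, among them Tfrc 1422967_a_at in SEMA6A minus control and Alad 1457306_at in both factors minus control. In both factors minus SEMA3A, 5 of the 16 were above 0 and 11 below, with a median of -0.04, against 0.00 for all probe sets, and a range from -0.49 to 0.31. These comparisons share arrays, so their counts are not independent of each other.

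**Figure D3:**
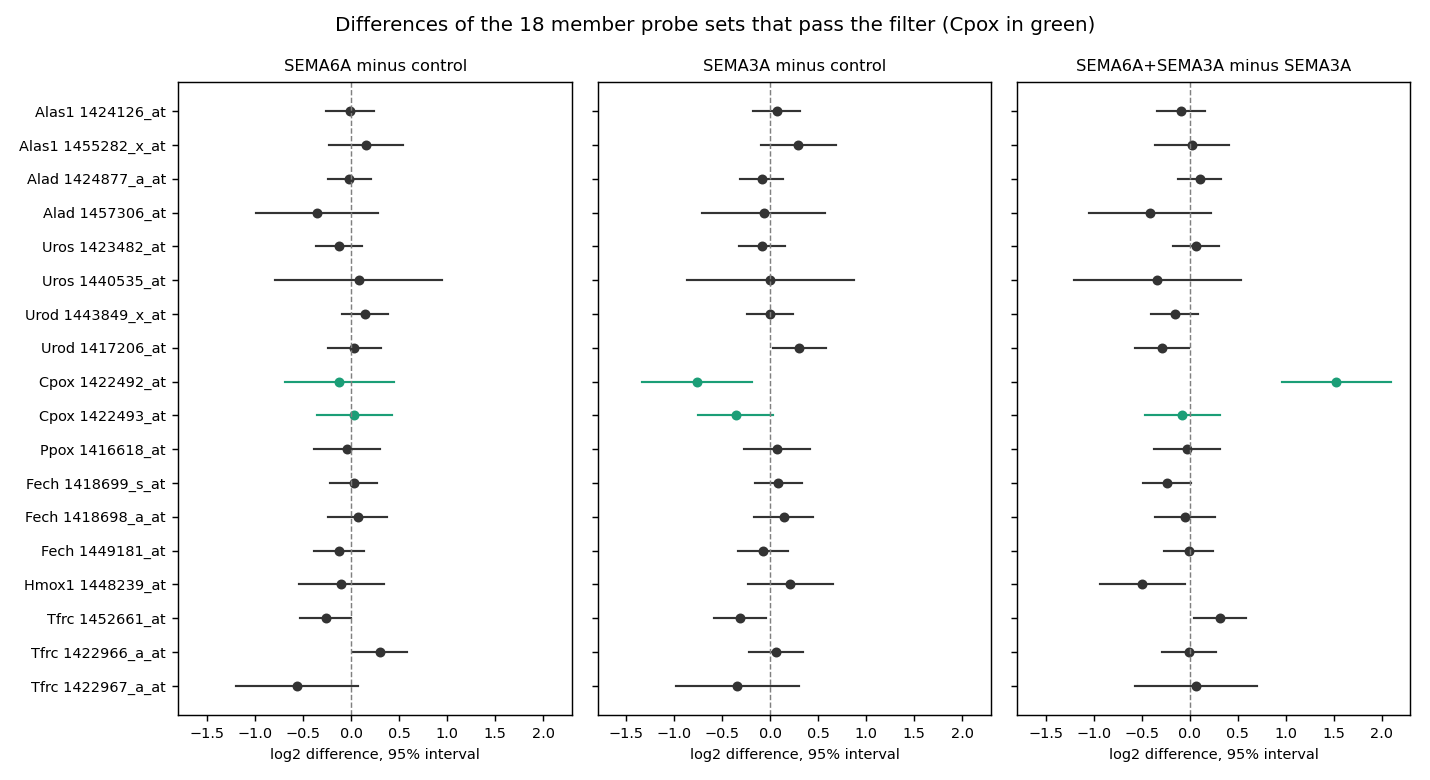
Log2 differences of the 18 member probe sets that passed the filter (horizontal axes, points, with 95% intervals as lines) for 3 comparisons, one row per probe set. Cpox was chosen by arrays used in SEMA3A minus control and in both factors minus SEMA3A. Its intervals there are not a test, whether or not they include 0. In both factors minus SEMA3A the brightest Cpox probe set lies at 1.53 and the 16 probe sets of other genes between -0.49 and 0.31.

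Hmox1, measured by a single probe set, was high on 2 arrays. Its signals were 139.4, 120.8 and 140.4 with both factors, against 232, 259.7 and 124.8 with SEMA3A. SEMA3A replicates 1 and 2 were the highest of all 12 arrays, and replicate 3 fell within the range of the arrays with both factors. Both factors minus SEMA3A was -0.49 ± 0.20 (SE; limma adjusted p = 0.41), and it lay between -0.76 and -0.32 when single arrays were left out. In the SEMA6A group the signals were 131.7, 153.9 and 184.6, overlapping with 160.6, 155.8 and 178.1 in the control group, and SEMA6A minus control was -0.10 ± 0.20 (adjusted p = 0.87). All arrays with both factors lay below all control arrays, at -0.29 ± 0.20 (adjusted p = 0.95). SEMA3A minus control was 0.21 ± 0.20 (adjusted p = 0.80), and between 0.04 and 0.47 when single arrays were left out. Macrophages are a main site of Hmox1, and the summed signal of 8 macrophage and monocyte markers, of which 3 passed the filter, lay between 630.3 and 680.3 with both factors, between 581 and 838 with SEMA6A, between 607 and 869 with SEMA3A and between 547 and 618 in the control group. All arrays with both factors lay above all control arrays in that sum. Adgre1, Lyz2, Itgam, Mrc1 and Marco were below the filter, and the part of such cells in the Hmox1 values was not tested.

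Tfrc gave the brightest signal of the 9 genes, which does not rank its RNA against theirs, since probe sets differ in response. At 1452661_at it had 13066, 13406 and 13192 with both factors, 13513, 9756 and 9898 with SEMA6A, 9280.4, 9988 and 12917 with SEMA3A, and 12370, 13295 and 13197 in the control group. SEMA6A replicates 2 and 3 and SEMA3A replicates 1 and 2 were the low arrays, and all 3 arrays with both factors lay above all 3 with SEMA3A. Both factors minus SEMA3A was 0.31 ± 0.12 (SE; limma adjusted p = 0.41), SEMA3A minus control -0.32 ± 0.12 (adjusted p = 0.59) and SEMA6A minus control -0.27 ± 0.12 (adjusted p = 0.53). Both factors minus control was -0.002 ± 0.12, and the interaction was 0.58 ± 0.18 (adjusted p = 0.24). The interaction passed without SEMA6A replicate 1, at 0.72 (adjusted p = 0.025), and with weights for each array, at 0.68 (adjusted p = 0.015). Under these settings 5.68% and 9.68% of all tested probe sets passed in the interaction, against 1 of the 16 probe sets of the genes other than Cpox. With those weights both factors minus SEMA3A was 0.36 (adjusted p = 0.049), where 3.23% of all probe sets passed.

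The low Tfrc arrays were the ones on which glycolysis and hypoxia genes were high. The mean level of 23 such genes around the mean of all arrays was 0.55 and 0.33 on SEMA6A replicates 2 and 3 and 0.51 and 0.33 on SEMA3A replicates 1 and 2, and it lay between -0.38 and -0.09 on the other 8. Hmox1 lay at 153.9 and 184.6 on those SEMA6A arrays and at 232 and 259.7 on those SEMA3A arrays. As the arrays form separate clusters, no correlation over all 12 is given. The part of that shift in the Tfrc values was not tested, and the split was seen in the data.

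**Figure D4:**
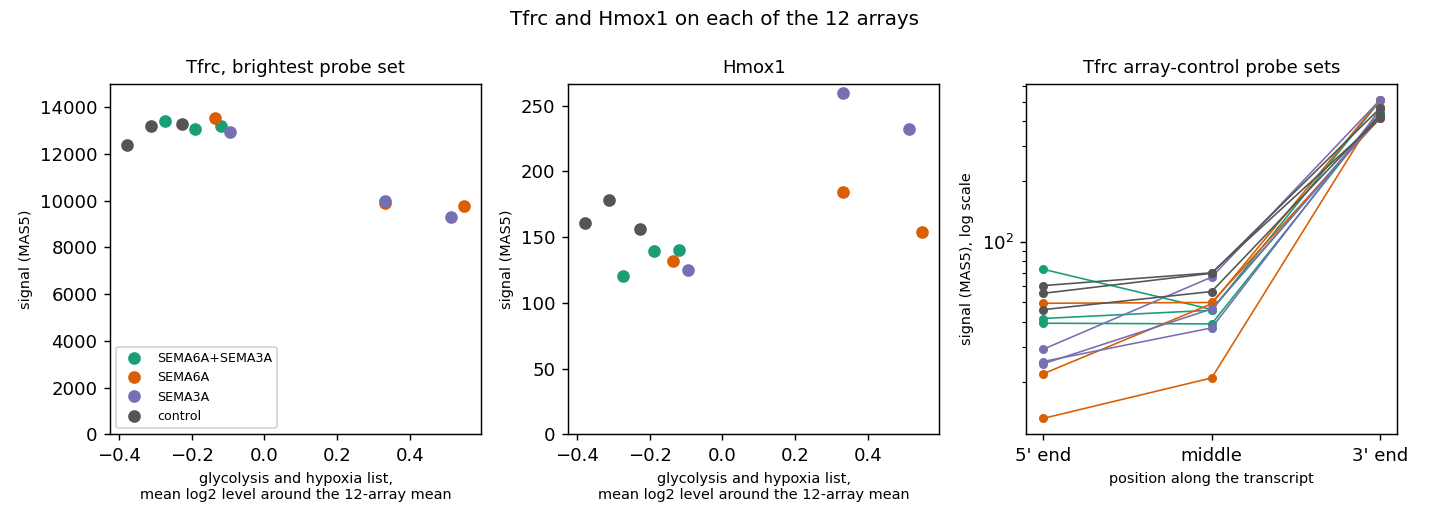
Left and middle: Tfrc and Hmox1 signal (MAS5 units, axes starting at 0) against the mean log2 level of 23 glycolysis and hypoxia genes around their 12-array mean, one point per array. Right: signal of the 3 Tfrc control probe sets (log axis) along the transcript, one line per array; Tfrc is at most 9988 on the 4 arrays at 0.33 or more and at least 12370 on the others.

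The other Tfrc probe sets did not show that split. At 1422966_a_at, SEMA6A gave 793, 1045 and 775, all above 708, 713 and 691 in controls, and SEMA6A minus control was 0.30 ± 0.13 (SE; limma adjusted p = 0.53), opposite in sign to the -0.27 of the brightest probe set. For both factors minus SEMA3A it was at -0.01 ± 0.13 (adjusted p = 0.99). The dimmer 1422967_a_at lay between 34.2 and 127.7, with SEMA6A minus control at -0.56 ± 0.30 (adjusted p = 0.54). Without SEMA6A replicate 2, the array with the raised Gapdh ratio, these 2 differences were 0.17 and -0.30.

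The array also carries control probe sets at the 5' end, the middle and the 3' end of the Tfrc transcript. At the 3' end the signal was even, from 413 to 512 on all arrays. At the 5' end it was 41.5, 73.1 and 39.3 with both factors, 49.4, 13.2 and 22.0 with SEMA6A, 24.6, 29.1 and 25.3 with SEMA3A, and 60.5, 55.4 and 45.9 in the control group. All SEMA3A arrays lay below all control arrays and below all arrays with both factors at the 5' end. The middle probe set lay between 21.0 and 70.1. The 3' to 5' ratio was 20.04 ± 9.04 on the 6 arrays that had a single factor and 8.99 ± 2.45 on the 6 with both or neither (SD). That split was chosen with earlier results of these data known, so these values are a description with no p. By the factors themselves, the ratio was 16.1 ± 11.3 with SEMA6A and 12.9 ± 5.24 without (exact permutation p = 0.60), and 13.7 ± 4.80 with SEMA3A and 15.3 ± 11.7 without (exact permutation p = 0.78; adjusted p = 0.78 for both, n = 6 each). The 5' probe set was above the array median on 5 of the 12 arrays, so the ratio rests on a signal near background.

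Other haem genes showed no common shift. The list of other haem steps and transport had 13 tested genes of 17, with 8 above 0 and 5 below in both factors minus SEMA3A and a median of 0.05, against 0.01 for all 11325 genes. Adjusted p-values under 0.05 were reached by 0 of them, as by 0% of all 24366 probe sets. The smallest p was that of Flvcr1, which exports haem, at 1657 ± 62.4 with both factors against 1240.1 ± 188 with SEMA3A (SD, n = 3 each), which differed by 0.43 ± 0.15 (SE; limma adjusted p = 0.36). Flvcr1 was at -0.25 ± 0.15 in SEMA6A minus control (adjusted p = 0.56). Blvrb, a biliverdin reductase, which acts after haem is opened, was at 0.47 ± 0.27 in both factors minus SEMA3A (adjusted p = 0.52), and the smallest p in SEMA6A minus control was that of Pgrmc1, a haem-binding membrane protein, at -0.25 ± 0.11 (adjusted p = 0.53). The mitochondrial transporter Abcb10 was at 0.32 ± 0.17 in that comparison (adjusted p = 0.54).

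Iron genes likewise did not pass the adjusted threshold, as no tested probe set on the array did with the main settings. Of 14 tested genes of iron uptake, storage and export, 9 were above 0 and 5 below in both factors minus SEMA3A, with a median of 0.05 and 0 past the adjusted threshold. Fbxl5, an iron-sensing ubiquitin ligase subunit that removes the iron regulatory protein IRP2, had the smallest p, at 542 ± 29.7 with both factors against 358 ± 31.5 with SEMA3A (SD, n = 3 each), which differed by 0.61 ± 0.16 (SE; limma adjusted p = 0.33). Slc25a37, the mitochondrial iron importer mitoferrin, was at 0.23 ± 0.12 (adjusted p = 0.48), and Fth1, the ferritin heavy chain that stores iron, at -0.06 ± 0.06 (adjusted p = 0.73). The 11 tested genes of iron-sulphur cluster assembly had a median of 0.04, with 7 above 0, in that comparison. In both factors minus SEMA6A their median was 0.20, with 8 above 0 and 3 below, against 0.00 for all genes, and 0 passed. At an unadjusted limma p under 0.05 that comparison had 4 of the 11 higher and 1 lower, against 10.7% of all probe sets. The list was not tested as a set. Among the iron-sulphur genes, Bola3 was at 0.23 ± 0.11 in both factors minus SEMA3A (adjusted p = 0.44) and Lyrm4 at 0.38 ± 0.18 (adjusted p = 0.45). Lyrm4 was at -0.45 ± 0.18 in SEMA6A minus control (adjusted p = 0.53), and its mean was 1178 ± 43.1 with both factors and 1140.2 ± 114 in controls (SD, n = 3 each).

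A list of haem-using proteins also held assembly factors and partner subunits. Of its 10 tested genes, 4 were above 0 and 6 below in both factors minus SEMA3A, with a median of -0.06. As for all probe sets, 0 were past the adjusted threshold. Cycs, cytochrome c, was at 23679 ± 1011 with both factors against 17307 ± 1611 with SEMA3A (SD, n = 3 each), which differed by 0.47 ± 0.09 (SE; limma adjusted p = 0.25), and it was known from earlier results of these data when the list was drawn up. Cox10, of haem a synthesis, was at 0.13 ± 0.11 (adjusted p = 0.66). Among 12 tested regulators, 4 were above 0 and 8 below, with a median of -0.03. Atf4, the stress-induced transcription factor, was at 9866 ± 156 with both factors against 12239 ± 1232 with SEMA3A, a difference of -0.32 ± 0.08 (adjusted p = 0.33). Eif2ak1, the haem-regulated kinase that acts upstream of Atf4, was at -0.27 ± 0.15 (adjusted p = 0.50). Nfe2l2, which encodes NRF2, an inducer of Hmox1, was at 582 ± 321 with SEMA6A against 898 ± 166 in controls, which gave -0.75 ± 0.37 (adjusted p = 0.54), and Bach1, a haem-binding repressor of Hmox1, was at 0.23 ± 0.14 in the same comparison (adjusted p = 0.57). Max was at -0.66 ± 0.32 there (adjusted p = 0.54). The glycolysis and hypoxia list, for comparison, had medians of -0.42 in both factors minus SEMA3A, 0.57 in SEMA6A minus control and 0.48 in SEMA3A minus control, with 0 of 23 genes past the adjusted threshold in each.

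The pattern of the brightest Cpox probe set over the 12 arrays was closest to those of Adi1 (Pearson r = 0.94), Rbbp7 (0.93), Qrsl1 (0.93), Pom121 (0.92) and Prpf19 (0.92) among 11324 other genes. The lowest r were those of Eif3e (-0.90), Lacc1 (-0.88), Glud1 (-0.88), Rac1 (-0.87) and Tubgcp2 (-0.86). Of the other members, Alad was at 0.58, Tfrc at 0.55, Uros at 0.25 and Ppox at -0.04. Urod was at -0.35, Alas1 at -0.39, Fech at -0.57 and Hmox1 at -0.64, against a median of 0.02 for all genes. These values include the arrays by which Cpox was chosen, so the genes at either end are in part those that share the chosen contrast. They rest on the probe set that 1422493_at did not follow, and they are a description of 12 arrays in 4 shared groups with no test.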

How the data were processed

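Splenocyte RNA was measured on 12 single-colour arrays. Per the submitters' processing notes, the authors used MAS5 (no version stated), and each deposited value is a linear intensity of a probe set. After trimming 2% at either end, each array averaged 500. Of 45101 probe sets, 64 were controls. Of the rest, the platform annotation gave 1 gene for 34945, several for 932 and none for 9160.

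Signals were transformed as log2(signal + 16) and quantile normalized. The 24366 probe sets that exceeded the array median on 3 or more arrays were tested. All 12 arrays entered a limma 3.58.1 fit (R 4.3.3) with a mean for each group and a trend in the prior, and p-values were adjusted by Benjamini-Hochberg over all of them at 0.05. The brightest probe set of a gene is the one with the highest mean log2 value, and lists and likeness to Cpox use it. The Tfrc control ratio was tested by exact permutation over 924 splits (Python 3.11.15, numpy 2.4.6). The fit was tested on simulated data.

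The members and lists were chosen with earlier results of these data known. All members are named. Genes named from a list are among the 4 with the smallest p in both factors minus SEMA3A or in SEMA6A minus control, and the rest of those 4 are not all printed. The lists were other haem steps and transport, iron, iron-sulphur clusters, haem-using proteins with assembly factors and partner subunits, regulators, and glycolysis and hypoxia. Marker lists of T, cytotoxic, B, macrophage, erythroid and squamous carcinoma cells were set too. Of these, 7 of 8 T cell, 5 of 5 cytotoxic, 2 of 5 B cell and 3 of 8 macrophage markers on the array passed the filter. Alternatives changed the normalization, pseudocount, filter, probe sets per gene, arrays in the fit, prior and array weights, added a replicate block, or left out each array.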

Additional observations from a re-analysis of the deposited data

Results flagged for a closer look

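At 2 probe sets, every array with both factors lay above the SEMA6A mean while every array with SEMA3A alone lay below the control mean. The brightest Cpox probe set had a mean log2 difference of 0.887 for both factors minus SEMA6A and -0.764 for SEMA3A minus control, so the effects of SEMA3A differed by 1.65. Cpox was chosen for its values on these arrays, and this difference was not tested. The brightest Tfrc probe set had 0.263 for both factors minus SEMA6A and -0.315 for SEMA3A minus control, a difference of 0.578, for which the interaction gave a limma adjusted p = 0.24. There SEMA3A replicate 3 lay just below the control mean, with a signal of 12917 against 12954. Other probe sets of these genes differed. For the same comparisons, Cpox 1422493_at was at -0.468 and -0.361 and Tfrc 1422966_a_at at -0.252 and 0.056. The dim Tfrc 1422967_a_at, at 0.289 and -0.344, had the signs of the brightest.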

How the results depend on the processing

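With the main settings 0 probe sets passed the adjusted threshold in each comparison. With array weights, 1 passed in SEMA6A minus control, 150 in SEMA6A+SEMA3A minus control, 786 in SEMA6A+SEMA3A minus SEMA3A, 7 in SEMA6A+SEMA3A minus SEMA6A and 2359 in the interaction. Fitting only the arrays compared gave 52 in SEMA6A+SEMA3A minus control and 40 in SEMA6A+SEMA3A minus SEMA3A, and no further normalization gave 1 in SEMA6A+SEMA3A minus control. Leaving out single arrays gave 0 to 199 in SEMA6A minus control and 0 to 1375 in the interaction, both highest without SEMA6A replicate 1, and 100 in the interaction without SEMA3A replicate 3. It gave 0 to 1 in SEMA3A minus control, 0 to 7 in SEMA6A+SEMA3A minus control (highest without SEMA6A replicate 2), 0 to 2 in SEMA6A+SEMA3A minus SEMA3A and 0 to 1 in SEMA6A+SEMA3A minus SEMA6A. The cause was not tested.

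Of 2054 member values with a test under alternatives, 2050 kept their side of the threshold and, where the main difference was at least its standard error, their direction. The 208 Cpox values with no test moved by less than a standard error, and whether they would pass was not assessed. The 3 that newly passed are the Tfrc values given above. Uros 1440535_at turned to 0.15 in SEMA6A+SEMA3A minus SEMA6A without SEMA6A+SEMA3A replicate 3 (main value -0.42), within a range of -0.89 to 0.15 over all arrays left out in turn. For the Tfrc ratio, quantile normalized log2 values differed by 0.74 for either factor alone and by 0.14 for SEMA3A. These are in log2 units. The main values of 11.1 and -1.62 are differences of linear ratios, so the sizes cannot be compared. Without SEMA6A replicate 2 the Tfrc ratio differed by 7.93 for either factor alone, by -0.69 for SEMA6A and by 2.45 for SEMA3A, whose main values were 3.22 and -1.62. The cause was not tested.

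With the replicate block, 0 probe sets passed in each comparison. No shared deviation by replicate number was seen: deviations of the 18 same-numbered pairs correlated between -0.28 and 0.08, with 0 above 0.1. Whether equal numbers share a mouse or culture is not stated in the labels, and these values cannot settle it. Of the 36 pairs with different numbers, 5 were above 0.1, up to 0.32 for SEMA6A replicate 1 with SEMA3A replicate 3.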
